A study of Mus musculus with 6 samples.

Results

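The MHC class I antigen presentation genes of mouse hepatocytes were followed as 10 genes chosen by name: the heavy chains *H2-K1* and *H2-D1*, the light chain *B2m*, the peptide transporter subunits *Tap1* and *Tap2*, the loading factor *Tapbp*, the immunoproteasome subunits *Psmb8*, *Psmb9* and *Psmb10*, and the regulator *Nlrc5*. All 10 were found among the 57180 genes of the table, and all 10 passed the filter on low counts that left 14151 genes. RNA was sequenced from primary hepatocytes of male STINGLoxp mice, which carry floxed STING (LOXP, n = 3 libraries), and of male STINGLKO mice, in which floxed STING was combined with a Cre recombinase driven by the Albumin promoter and so expressed in hepatocytes (KO, n = 3 libraries). Both groups received 0.1 mM palmitic acid, a saturated fatty acid, for 24 h in medium with dexamethasone and serum, and no library without palmitic acid is part of the comparison. Mice were 8 to 10 weeks old and of C57BL/6 background, as stated for all mice used and not for these libraries by themselves. Nothing states that each library came from its own mouse, so the p-values measure the spread between these libraries, which may be technical.

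MHC class I molecules carry short peptides from proteins made inside a cell to its surface, where CD8+ T cells read them. The proteasome cuts the proteins, TAP moves the peptides into the endoplasmic reticulum, and the loading complex fits them to a heavy chain paired with β2-microglobulin. Interferons raise the transcription of most of these genes. Hepatocytes are known for a low resting level of class I molecules that rises in inflammation. The question put to these libraries was how transcripts of this pathway differed in palmitic acid-treated hepatocytes when STING, an adaptor that senses cyclic dinucleotides and induces type I interferon, had been targeted in the hepatocytes.

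Counted reads ran from 14726983 to 18536985 per library, and the first principal component separated the groups. *Sting1*, the targeted gene, had 19, 16 and 23 counts in the 3 STINGLoxp libraries and 24, 23 and 15 in the 3 STINGLKO libraries, with a log2 fold change of -0.08 (SE 0.30, 95% interval -0.76 to 0.60, edgeR adjusted p = 0.883). The loss of the gene was therefore not visible in these counts, and "STINGLKO" below means the libraries labelled so. Depth at this gene was low, but the interval ended at -0.76 and so did not include a larger fall. The study itself reports, by RT-PCR of purified hepatocytes, that *Sting1* mRNA was present and was lost with the knockout. Transcripts of other liver cells were present. In FPKM (reads scaled to gene length and library total), 15 Kupffer cell and macrophage markers summed to 67.3 to 84.2 in STINGLoxp and 53.2 to 62.9 in STINGLKO libraries, with none at 0 and *Cd68* the highest. Without *Cd68* the sums were 29.6 to 44.2 and 33.7 to 40.1. Of the 13 that passed the filter, *Cd68*, *Mpeg1* and *Itgam* (23.1%) were called lower, with log2 fold changes of -0.87, -0.69 and -2.01. For this and the lists below, the shares over all genes tested were 11.6% called lower and 11.5% called higher. Over the 13, 8 fold changes were below 0 and 5 above, and none was called higher. The highest was *Cd5l* at 0.94, with every STINGLKO library above every STINGLoxp library. The 11 sinusoidal endothelial markers, led by *Cdh5*, summed to 33.8 to 36.1 and 30.9 to 33.9, with 1 of 10 tested called lower. The 6 cholangiocyte markers, led by *Sox9*, summed to 19.9 to 23.3 and 10.4 to 11.7, with 2 of 3 tested called lower and 1 higher, and the 11 stellate and fibroblast markers, led by *Sparc*, to 10.6 to 12.5 and 12.5 to 13.2, with none of 9 tested called lower. All 13 T and NK cell markers, among them *Cd3e* and *Nkg7*, had 0 counts in every library. The 7 neutrophil markers, led by *Csf3r*, summed to 0.186 to 0.777 in STINGLoxp and 0.011 to 0.070 in STINGLKO libraries. They had 62 counts in all, *Ly6g* and *Retnlg* were at 0, and none passed the filter. The 9 dendritic and B cell markers, led by *Zbtb46*, summed to 0.748 to 0.926 and 0.876 to 1.08. *Flt3*, *Xcr1*, *Ms4a1* and *Cd79a* were among those at 0. The 9 hepatocyte markers in the table, led by *Alb*, summed to 10180 to 10540 and 8768 to 8914, and 7 of the 9 (77.8%) were called lower in STINGLKO. The part of these markers in the results below was not tested, and in bulk RNA fewer cells of a type and less RNA per cell cannot be told apart.

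Of the 10 class I genes, 6 fell in STINGLKO hepatocytes and none rose, by edgeR's quasi-likelihood test at an adjusted p under 0.05. Those that fell were *Tap1*, *Psmb9*, *Psmb8*, *Psmb10*, *B2m* and *Tap2*, and their levels were 57.6% to 84.3% of those in STINGLoxp. *H2-D1*, *Nlrc5*, *H2-K1* and *Tapbp* did not pass the test, with levels of 87.7% to 92.9%. Over all genes tested, 11.6% were called lower and 11.5% higher. All 10 fitted fold changes were below 0, against 50.3% of all genes, and the median of the 10 was -0.27 on the log2 scale, against -0.002 for all genes. The 3 STINGLKO libraries lay below the 3 STINGLoxp libraries without overlap for 7 of the 10 genes, and this was so for 20.3% of all genes, while 20.4% lay above without overlap. None of the 10 met the study's stricter definition of a differentially expressed gene, which adds a log2 fold change beyond 1 and a group mean of more than 1 FPKM. Of all genes tested, 2.05% met it, 1.49% as lower and 0.558% as higher. STINGLoxp replicate 2 held the highest value of 8 of the 10 genes and STINGLKO replicate 1 the lowest of 6. Without STINGLoxp replicate 2, or without STINGLKO replicate 1, the count of genes called fell to 2, *Tap1* and *Psmb9*. Without STINGLKO replicate 3 it was 3, *Tap1*, *Psmb8* and *Psmb9*. Without STINGLoxp replicate 3 it was 4, and the other omissions left 5 or 7.

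**Figure D1:**
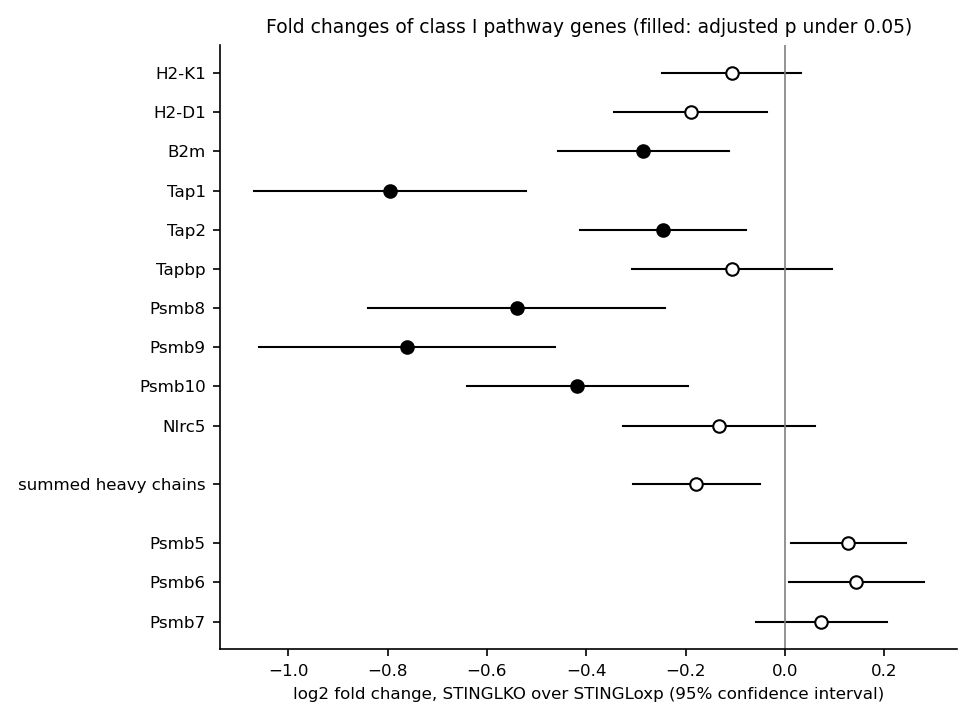
Log2 fold change of each class I gene, STINGLKO over STINGLoxp, with that of the summed heavy chains and the constitutive subunits *Psmb5*, *Psmb6* and *Psmb7* below, and 95% intervals from edgeR's quasi-likelihood fit (n = 3 libraries per group). Filled markers have an adjusted p under 0.05. *Tap1* at -0.80 and *Psmb9* at -0.76 lie furthest from 0, and of the 10 class I genes *Tapbp* and *H2-K1* at -0.11 lie nearest to it.

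The transporter subunits fell by unequal amounts. *Tap1* (ENSMUSG00000037321, chromosome 17 from 34406527 to 34416199 in GRCm39) encodes the first subunit of TAP, the transporter that pumps peptides into the endoplasmic reticulum. It had 35.6, 40.7 and 35.9 CPM (normalized counts scaled to a common library total) in the STINGLoxp libraries and 18.4, 25.1 and 21.1 in the STINGLKO libraries. Every STINGLKO library was thus below every STINGLoxp library, and the highest of them was STINGLKO replicate 2. The log2 fold change was -0.80 (SE 0.12, 95% interval -1.07 to -0.52, edgeR adjusted p = 0.00245). The level in STINGLKO was 57.6% of that in STINGLoxp, with an interval from 47.7% to 69.7%. *Tap2* (ENSMUSG00000024339, chromosome 17 from 34422501 to 34435295), the partner without which the transporter does not form, had 69.5, 73.1 and 75.5 CPM and 59.3, 65.9 and 58.7 CPM. These groups also did not overlap, but the distance between them was smaller. Its log2 fold change was -0.25 (SE 0.073, edgeR adjusted p = 0.0428), and its adjusted p rose above 0.05 without STINGLoxp replicate 2 (0.0979), STINGLoxp replicate 3 (0.124), STINGLKO replicate 1 (0.127) or STINGLKO replicate 3 (0.131).

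The ratio of *Tap1* to *Tap2* within a library does not depend on how libraries are scaled, and it was chosen after the values of both genes had been seen. On the log2 scale of normalized CPM it was -0.97, -0.84 and -1.07 in STINGLoxp libraries and -1.69, -1.39 and -1.48 in STINGLKO libraries. The difference of -0.56 was without overlap, and with 3 libraries against 3 the exact two-sided permutation p was 0.1, the smallest this design can give.

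*Tap1* and *Psmb9* start next to each other and are transcribed away from each other, so they share a promoter region. It is shown because the genes at its ends had the largest fold changes of the 10. The sequence between their starts, from RefSeq on GRCm38.p6 (chr17:34187331-34187555, 225 bases, strand of *Tap1*, with *Tap1* starting after its last base and *Psmb9* before the first), was searched for the interferon-stimulated response element (GAAA, any 2 bases, GAAA), the GAS element, the interferon-gamma-activated site (TTCNNNGAA), and the κB site (GGGNNTTCC), on both strands. None of these letters were in it, and so nothing is in capitals.

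Tap1-Psmb9: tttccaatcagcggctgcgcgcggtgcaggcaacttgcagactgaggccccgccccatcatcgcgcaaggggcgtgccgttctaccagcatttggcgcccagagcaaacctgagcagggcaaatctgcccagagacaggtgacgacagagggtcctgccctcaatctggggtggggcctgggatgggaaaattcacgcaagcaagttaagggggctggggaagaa

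It held the CCAAT box, bound by NF-Y, and the core of the cAMP response element, TGACG, which starts 86 bases before *Tap1*. Over 32851 mouse promoters of 300 bases each, 3.44% held the response element, 8.3% the GAS element, 5.82% the κB site, 37.4% the CCAAT box and 20.8% TGACG. A match is a description of letters and not a measured binding site. In the table of counts, whose gene models differ from these, *Tap1* and *Psmb9* overlap by 212 bases, and the strand setting of the counting is not given, so reads from that stretch cannot be assigned to either gene with certainty.

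The catalytic subunits of the immunoproteasome all fell. Each takes the place of a constitutive subunit in a newly built proteasome and changes which peptides are cut: *Psmb8* replaces *Psmb5*, *Psmb9* replaces *Psmb6* and *Psmb10* replaces *Psmb7*. *Psmb9* (ENSMUSG00000096727, chromosome 17 from 34400961 to 34406738) had 10.98, 10.07 and 9.744 CPM in STINGLoxp and 6.76, 5.77 and 5.66 CPM in STINGLKO libraries. The groups were far apart relative to their spread. This rested on 144 to 174 counts per STINGLoxp library and 97 to 107 per STINGLKO library, the fewest of the 10 genes, and the log2 fold change was -0.76 (SE 0.13, edgeR adjusted p = 0.00442). *Psmb8* (ENSMUSG00000024338, chromosome 17 from 34416695 to 34420428), between *Tap1* and *Tap2* on the chromosome, had 26, 30.9 and 22.7 CPM and 16.1, 19.3 and 19.2 CPM. Its STINGLoxp libraries were more spread than those of *Psmb9*, and replicate 3 was close to the STINGLKO libraries. Its log2 fold change was -0.54 (SE 0.13, edgeR adjusted p = 0.0199), and was -0.42 without STINGLoxp replicate 2 (adjusted p = 0.0521) and -0.46 without STINGLKO replicate 1 (adjusted p = 0.0720).

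*Psmb10* (ENSMUSG00000031897) lies apart from these on chromosome 8, from 106662367 to 106665076. It had 26.6, 31.1 and 30.3 CPM and 20.5, 24.0 and 21.3 CPM, and the groups did not overlap. Its log2 fold change was -0.42 (SE 0.097, edgeR adjusted p = 0.0171). The adjusted p was 0.0543 without STINGLoxp replicate 2, 0.0544 without STINGLoxp replicate 3, 0.0702 without STINGLKO replicate 1 and 0.0626 without STINGLKO replicate 3. The 250 bases before the start of *Psmb8* (RefSeq, GRCm38.p6, chr17:34197945-34198194, plus strand) are shown because this was the only promoter of the 8 genes with an entry that held the GAS letters. They are in capitals and start 97 bases before the gene.

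Psmb8: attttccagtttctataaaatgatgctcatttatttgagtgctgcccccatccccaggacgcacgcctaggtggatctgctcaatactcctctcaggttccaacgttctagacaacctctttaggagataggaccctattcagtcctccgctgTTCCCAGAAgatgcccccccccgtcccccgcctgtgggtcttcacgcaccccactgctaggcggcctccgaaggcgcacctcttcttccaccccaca

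**Figure D2:**
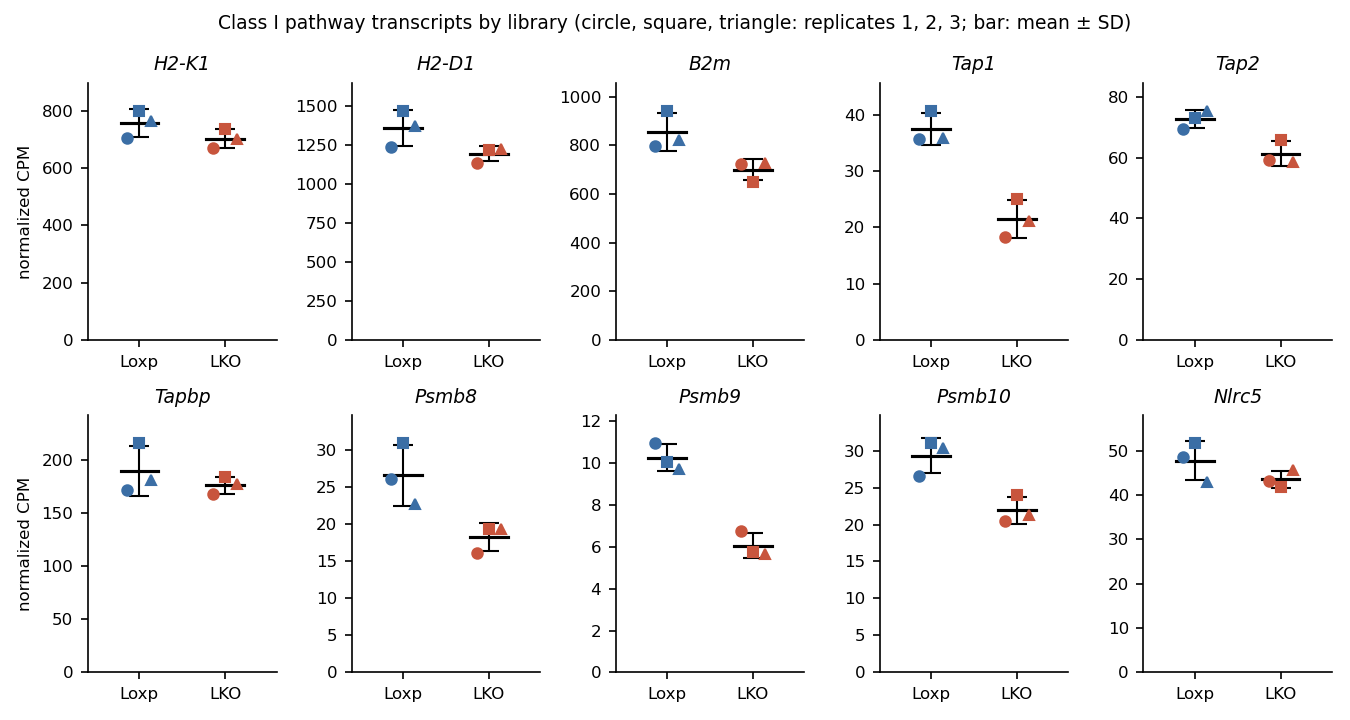
Normalized CPM of the 10 class I genes in each library (points, shaped by replicate number), with the mean and SD of each group (n = 3), on linear axes from 0. STINGLKO libraries lie below all STINGLoxp libraries in the panels of *H2-D1*, *B2m*, *Tap1*, *Tap2*, *Psmb8*, *Psmb9* and *Psmb10*, and the groups overlap in those of *H2-K1*, *Tapbp* and *Nlrc5*.

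None of the constitutive partners was called lower. *Psmb5* had 175.5, 184 and 175.1 CPM in STINGLoxp and 193, 198 and 193 CPM in STINGLKO, with a log2 fold change of 0.13 (edgeR adjusted p = 0.107). *Psmb6* and *Psmb7* had log2 fold changes of 0.14 (adjusted p = 0.119) and 0.07 (adjusted p = 0.413), so none of the 3 passed the test. Per length of the principal transcript, *Psmb8* stood at 8.18%, 9.29% and 7.14% of *Psmb5* in the STINGLoxp libraries and at 4.59%, 5.39% and 5.52% in the STINGLKO libraries. *Psmb9* stood at 3.63%, 3.08% and 2.88% of *Psmb6* and at 1.96%, 1.61% and 1.55%. *Psmb10* stood at 9.41%, 11.7% and 11.5% of *Psmb7* and at 7.0%, 8.92% and 7.3%. In both groups the immunoproteasome transcripts were thus a small share of their partners, and for each pair every STINGLKO library had a lower share than every STINGLoxp library. The log2 ratios of FPKM differed by -0.66 for *Psmb8* to *Psmb5*, -0.91 for *Psmb9* to *Psmb6* and -0.49 for *Psmb10* to *Psmb7*, and the mean of the 3 pairs by -0.69. Each of these 4 exact two-sided permutation tests gave p = 0.1 (adjusted p = 0.1), the smallest that 3 libraries against 3 allow.

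**Figure D3:**
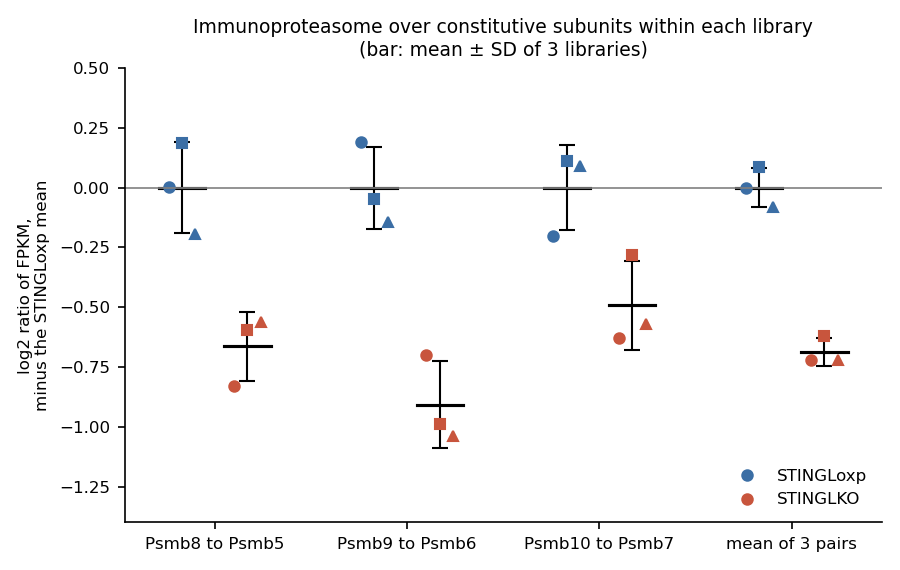
Log2 ratio of the FPKM of each immunoproteasome subunit to that of the constitutive subunit it replaces, and the mean of the 3 pairs, by library (points), less the STINGLoxp mean of each, with group means and SD (n = 3). In all 3 pairs the STINGLKO points lie below the STINGLoxp points, with mean differences from -0.91 to -0.49.

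The heavy chains and the light chain were the most abundant of the 10 transcripts, and of them *B2m* was the only gene called lower. *B2m* (ENSMUSG00000060802, chromosome 2 from 121978167 to 121983564) encodes β2-microglobulin, which every class I heavy chain needs for stable surface display. It had 797.5, 942.5 and 819.9 CPM in STINGLoxp and 724.8, 650.2 and 725.9 CPM in STINGLKO libraries. The groups did not overlap, and STINGLoxp replicate 2 and STINGLKO replicate 2 lay at the outer ends. The log2 fold change was -0.29 (SE 0.075, 95% interval -0.46 to -0.11, edgeR adjusted p = 0.0275), a level of 82.1% of STINGLoxp. The call was lost without STINGLoxp replicate 2 (-0.21, adjusted p = 0.0626), STINGLKO replicate 1 (-0.31, adjusted p = 0.0587), STINGLKO replicate 2 (-0.23, adjusted p = 0.0981) or STINGLKO replicate 3 (-0.31, adjusted p = 0.0562).

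*H2-K1* (ENSMUSG00000061232, chromosome 17 from 34214991 to 34219321) and *H2-D1* (ENSMUSG00000073411, chromosome 17 from 35481706 to 35486475) encode the classical heavy chains, which bind the peptide and face the T cell receptor. *H2-K1* had 704.8, 800.9 and 765.5 CPM in STINGLoxp and 670.5, 735.8 and 701.9 CPM in STINGLKO libraries. The groups overlapped, and the log2 fold change was -0.11 (SE 0.061, 95% interval -0.25 to 0.03, edgeR adjusted p = 0.251). *H2-D1* had 1236, 1468 and 1370 CPM and 1135, 1216 and 1222 CPM. Its groups did not overlap, but the distance between STINGLoxp replicate 1 and STINGLKO replicate 3 was small, and the log2 fold change of -0.19 (SE 0.068, 95% interval -0.34 to -0.04) did not pass the test (edgeR adjusted p = 0.0789). Without STINGLoxp replicate 1 it was -0.25 (adjusted p = 0.0181).

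Heavy chain genes are near copies of each other, and the counting may have split shared reads between them. The counts of 26 protein-coding *H2-K*, *H2-D*, *H2-Q*, *H2-T* and *H2-M* genes were therefore also summed. The sum was 3090, 3512 and 3346 CPM in STINGLoxp and 2831, 2979 and 2986 CPM in STINGLKO libraries. The groups did not overlap, and the log2 fold change of -0.18 (SE 0.056, 95% interval -0.31 to -0.05) was just short of the threshold (edgeR adjusted p = 0.0514). Without STINGLoxp replicate 1 it passed, at -0.23 (adjusted p = 0.0159).

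The 250 bases before the starts of these genes are shown because they hold the response element and the κB letters (RefSeq, GRCm38.p6). They are chr2:122147437-122147686 on the plus strand for *B2m*, chr17:34000334-34000583 on the minus strand for *H2-K1* and chr17:35262844-35263093 on the plus strand for *H2-D1*. Capitals mark the interferon-stimulated response element of *B2m*, 139 bases before its start, and the κB letters of *H2-K1* and *H2-D1*, 125 and 171 bases before theirs. *H2-K1* has another RefSeq entry with a nearby start, and the same letters lie 111 bases before that start.

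B2m: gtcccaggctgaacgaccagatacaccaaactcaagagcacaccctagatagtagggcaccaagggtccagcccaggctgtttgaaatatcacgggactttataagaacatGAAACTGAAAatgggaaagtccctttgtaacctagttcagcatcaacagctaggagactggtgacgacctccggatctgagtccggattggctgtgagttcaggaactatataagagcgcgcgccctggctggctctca
H2-K1: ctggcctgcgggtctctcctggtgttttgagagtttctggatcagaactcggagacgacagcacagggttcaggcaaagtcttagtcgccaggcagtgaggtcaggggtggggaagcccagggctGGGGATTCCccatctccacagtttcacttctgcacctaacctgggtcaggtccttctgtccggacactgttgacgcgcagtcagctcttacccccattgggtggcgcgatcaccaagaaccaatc
H2-D1: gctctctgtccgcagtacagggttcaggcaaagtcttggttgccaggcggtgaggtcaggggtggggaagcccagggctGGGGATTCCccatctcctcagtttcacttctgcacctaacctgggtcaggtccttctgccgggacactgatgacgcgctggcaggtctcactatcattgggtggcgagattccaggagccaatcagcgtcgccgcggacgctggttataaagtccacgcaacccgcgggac

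Of the 10 genes, 8 have a promoter entry, and *Tap2* and *Nlrc5* have none. The response element was in 1 of the 8, the GAS element in 1, the κB site in 2, the CCAAT box in 6 and TGACG in 5. No match overlapped that of another motif in the same promoter. The CCAAT box and TGACG of *Tap1* and *Psmb9* are the same bases of their shared region, counted for both genes. Of all genes with a promoter entry, 3.99%, 9.55%, 6.58%, 41.1% and 23% held these in the same order. Only the exact letters were counted, so a site that differs from them in any base was missed. A promoter without a match may therefore still hold such an element. The genes with TGACG were *H2-K1*, *H2-D1*, *B2m*, *Tap1* and *Psmb9*. The genes whose promoters held the response element or the κB letters, *B2m*, *H2-K1* and *H2-D1*, had log2 fold changes from -0.29 to -0.11, and *Psmb8*, with the GAS letters, had -0.54, values set side by side with no test.

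The loading factor and the regulator did not pass the test, and their groups overlapped. *Tapbp* (ENSMUSG00000024308, chromosome 17 from 34134873 to 34148266) encodes tapasin, which holds an empty class I molecule at TAP while peptides are exchanged. It had 172, 216 and 181 CPM in STINGLoxp and 168, 184 and 177 CPM in STINGLKO libraries. The groups overlapped, with STINGLoxp replicate 2 above the rest, and the log2 fold change was -0.11 (SE 0.088, 95% interval -0.31 to 0.10, edgeR adjusted p = 0.439). Without STINGLoxp replicate 2 it was -0.001. Its model in the table overlaps that of *Zbtb22* by 3422 bases, so some of its reads may belong to that gene. *Nlrc5* (ENSMUSG00000074151, chromosome 8 from 95160984 to 95253900), the transactivator that assembles on class I promoters with RFX, CREB/ATF and NF-Y proteins, had 48.5, 51.8 and 42.9 CPM and 43.2, 41.8 and 45.6 CPM. STINGLoxp replicate 3 was within the range of the STINGLKO libraries, and the log2 fold change was -0.13 (SE 0.085, 95% interval -0.33 to 0.06, edgeR adjusted p = 0.307).

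Levels were compared between genes only as RPKM computed here, CPM divided by the kilobases of the principal transcript, since the deposited FPKM divides several of these genes by a length greater than the gene itself spans. In STINGLoxp, the order of mean RPKM was *B2m* at 992 ± 90.7 (SD, n = 3), *H2-D1* at 646 ± 55.3, *H2-K1* at 468 ± 30.04, *Tapbp* at 65.5 ± 8.10, *Psmb10* at 22.4 ± 1.83, *Tap2* at 21.1 ± 0.874, *Psmb8* at 16.3 ± 2.55, *Tap1* at 12.7 ± 0.972, *Psmb9* at 7.59 ± 0.474 and *Nlrc5* at 6.30 ± 0.588. The 3 chains thus stood far above the machinery that supplies them with peptides. Of neighbours in this order, *Psmb10* and *Tap2* overlapped between libraries, in STINGLKO as well, and no other pair did. In STINGLKO, *Psmb9* at 4.48 ± 0.447 was below *Nlrc5* at 5.74 ± 0.253, the reverse of their order in STINGLoxp. *Tap1* had 12.1, 13.8 and 12.2 RPKM in STINGLoxp libraries beside 20.2, 21.2 and 21.9 for *Tap2*, and 6.22, 8.50 and 7.13 in STINGLKO libraries beside 17.2, 19.1 and 17.04.

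The other genes of the pathway were taken from 7 lists and did not move as 1 body. Over the 86 tested of 101 listed, 15 (17.4%) were called lower and 9 higher. Of all genes tested, 11.6% were called lower and 11.5% higher. Among other class I and class I-like heavy chains, 6 of 17 tested (35.3%) fell and none rose, with a median log2 fold change of -0.12. *H2-Q7* had 91.0, 110.0 and 96.3 CPM in STINGLoxp and 59.3, 59.0 and 54.6 CPM in STINGLKO libraries, a log2 fold change of -0.78 (edgeR adjusted p = 5.39e-04). *H2-Q4* had 78.4, 98.3 and 77.1 CPM and 50.7, 47.7 and 54.6 CPM, a log2 fold change of -0.73 (adjusted p = 0.00206). Both are nonclassical heavy chains, and their groups did not overlap. The other genes called were *H2-Q6* at -1.13, *H2-T24* at -1.35 from about 1 CPM, *Mr1* at -0.64, which presents vitamin metabolites to T cells, and *Fcgrt* at -0.58, which carries IgG and albumin rather than peptides. *H2-Q10*, a secreted class I molecule of the liver, and *H2-T22* were the highest of the list by FPKM and were not called, at -0.09 and -0.10. The *H2-Q* genes are close copies, so the split of reads between them is uncertain. *H2-T24* and *Mr1* were called without STINGLKO replicate 1 but not when any other library was left out, with adjusted p up to 0.0976 and 0.127, and the other 4 genes were called whichever library was left out.

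Genes upstream of the class I pathway that fell included interferon-activated factors. Of 18 transcription regulators tested, 5 (27.8%) fell and 1 rose, with a median of -0.14. Of all genes tested, 11.6% were called lower and 11.5% higher. *Irf9*, the DNA-binding subunit of the factor activated by type I interferon, had 62.2, 57.1 and 57.5 CPM in STINGLoxp and 34.99, 38.8 and 34.7 CPM in STINGLKO libraries (log2 fold change -0.70, edgeR adjusted p = 5.12e-04). The STINGLKO libraries were close to each other and below all STINGLoxp libraries. Other regulators that fell were *Irf1* at -0.95, *Stat2* at -0.41 and *Rela*, a κB-binding factor, at -0.29, and *Atf1*, of the CREB family, rose by 0.44. The *Rela* call was lost without STINGLoxp replicate 2 or 3 or STINGLKO replicate 1 or 2, with -0.27 to -0.25 and adjusted p from 0.0614 to 0.0815. *Irf1* lost the call without STINGLKO replicate 1 (adjusted p = 0.0539) and *Stat2* without STINGLKO replicate 2 (adjusted p = 0.0631), and *Atf1* was not called without STINGLoxp replicate 2 or 3 or STINGLKO replicate 1 or 2 (adjusted p up to 0.11). *Stat3*, the regulator with the highest FPKM after *Rela*, was at -0.18 and was not called. Of 13 interferon receptor and JAK pathway genes, 2 fell and none rose, with a median of -0.14. The 15.4% called lower is near the 11.6% of all genes. *Usp18*, which dampens type I interferon receptor signalling and is itself induced by interferon, had 89.6, 73.9 and 73.6 CPM and 30.7, 28.3 and 32.2 CPM (log2 fold change -1.38, adjusted p = 7.79e-05). *Jak2* was at -0.34 (adjusted p = 0.0109), and *Jak1* and *Ifngr1*, the highest of this list, were at -0.12 and -0.21 and were not called.

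The lists of shared endoplasmic reticulum and proteasome machinery together held genes called in both directions. Of 10 loading and trimming genes none was called in either direction, with a median of 0.01. The nearest to the threshold were *Pdia3*, a thiol oxidoreductase of the loading complex, at 0.19 (edgeR adjusted p = 0.0538) and *Erap1*, which trims peptides, at -0.22 (adjusted p = 0.0911). *Calr* and *Bcap31*, the highest of the list, were at 0.11 and -0.13. The 14 constitutive 20S core subunits had 5 genes called higher, none lower and a median of 0.20, beside 11.5% of all genes called higher. *Psma5* rose by 0.43 (adjusted p = 0.00412) and *Psmb3* by 0.31 (adjusted p = 0.00583), followed by *Psmb2* at 0.28, *Psma2* at 0.23 and *Psma7* at 0.23. *Psmb4* and *Psmb5*, the highest of this list, were at 0.16 and 0.13 and were not called. Without STINGLKO replicate 1 or 2 the count of core subunits called fell to 2. Of 10 proteasome activator and assembly genes, 2 (20%) fell and 2 rose, beside 11.6% and 11.5% of all genes tested. *Psmf1*, a proteasome inhibitor, was at -0.49 (adjusted p = 0.00377) and *Psme1*, a subunit of the interferon-induced activator, at -0.27 (adjusted p = 0.0202). The assembly chaperones *Psmg2* and *Psmg3* rose by 0.34 and 0.37, and *Psme3* and *Psmg4* were at 0.03 and 0.01. The *Psme1* call was lost without any library but STINGLoxp replicate 1, with -0.28 to -0.24 and adjusted p from 0.0534 to 0.0755. *Psmg2* stayed called only without STINGLoxp replicate 1 or STINGLKO replicate 2, and *Psmg3* only without STINGLoxp replicate 3.

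**Figure D4:**
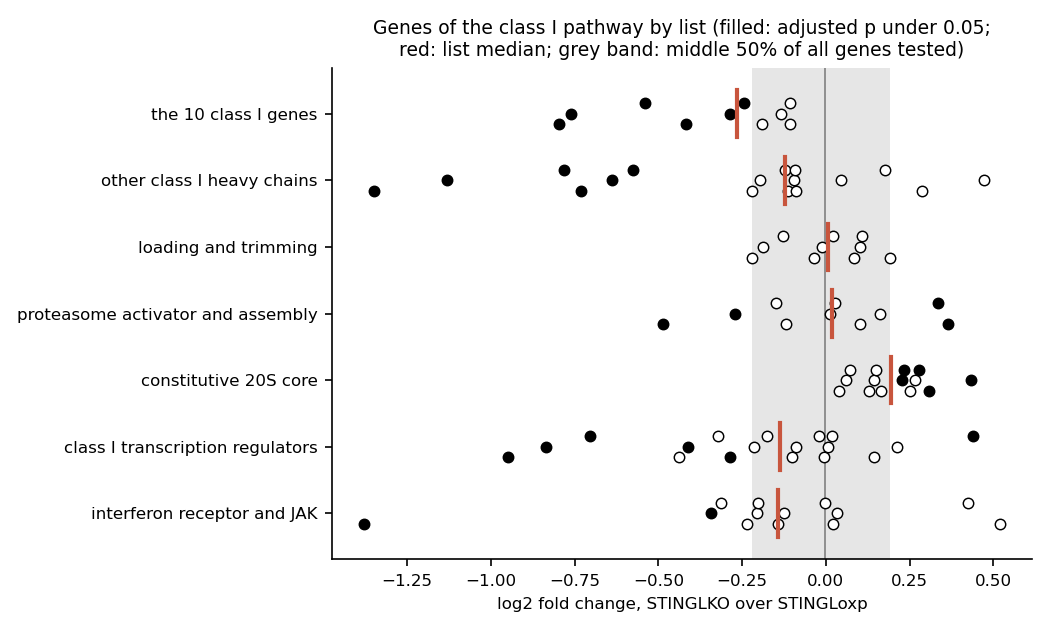
Log2 fold changes, STINGLKO over STINGLoxp, of the tested genes of the class I list and 6 other lists (points, filled where the edgeR adjusted p is under 0.05, with a red line at each list's median and a grey band over the middle 50% of all genes tested). The class I genes have a median of -0.27 and the constitutive 20S core subunits a median of 0.20.

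Class II genes, which mark professional antigen-presenting cells, were near the floor of detection. Of 11 listed, 4 passed the filter, and *H2-Oa*, *H2-Ob* and the class II transactivator *Ciita* had 0 counts in every library. *Cd74*, the invariant chain, had 1.33, 2.03 and 1.45 CPM in STINGLoxp and 2.55, 2.97 and 3.03 CPM in STINGLKO libraries, a log2 fold change of 0.84 (edgeR adjusted p = 0.0345). It was thus higher in the libraries in which the class I genes were lower, at about 1 to 3 CPM. The call held only without STINGLoxp replicate 2 (1.04, adjusted p = 0.0249) among the omissions of 1 library, and the others gave 0.71 to 0.91 with adjusted p from 0.0606 to 0.108. DESeq2 (adjusted p = 0.0850) and the filter at 1 count (adjusted p = 0.0522) did not call it either, and on the log2(FPKM + 1) scale, which compresses low values, its fold change was 0.41 (limma adjusted p = 0.0117). *Ctss*, a lysosomal protease that processes the invariant chain, was at 0.40 and was not called (adjusted p = 0.144). Of the 4 tested, 3 had fold changes above 0, and *H2-Ab1*, a class II chain, was at -0.66 (edgeR adjusted p = 0.226).

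Among the 10 class I genes, *Tap1* and *Psmb9* were the only ones called lower under all 13 alternatives of tool, scaling, filter, block or omitted library. The fold change of *Tap1* ranged from -0.92 to -0.54 with an adjusted p of at most 0.0139, and that of *Psmb9* from -0.84 to -0.38 with an adjusted p of at most 0.0225. All 10 fitted fold changes were below 0 under every alternative, and the values nearest to 0 were those of *Tapbp*.

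**Figure D5:**
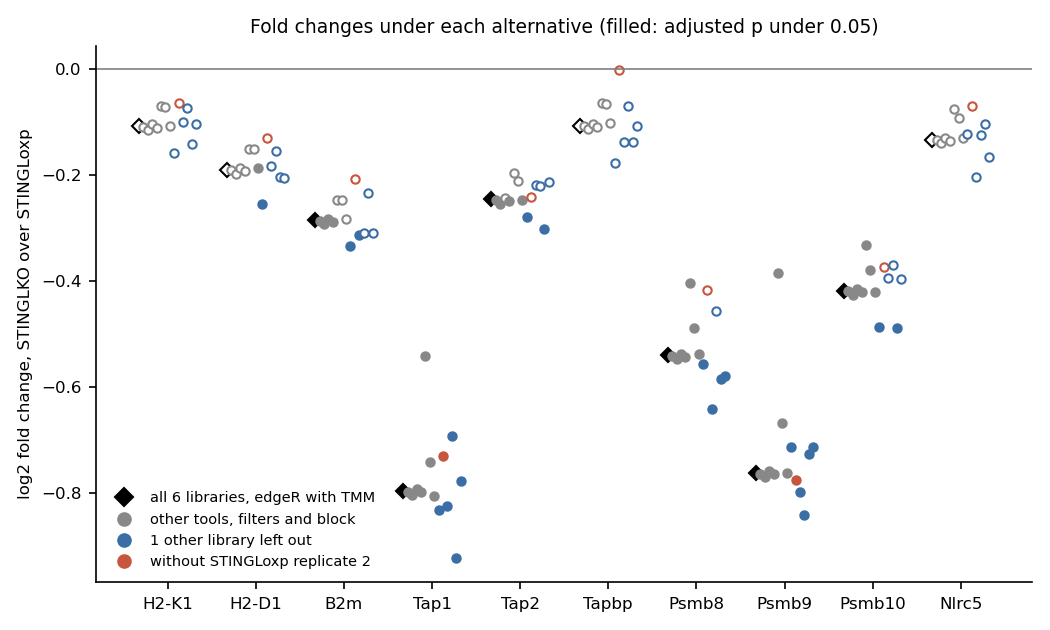
Log2 fold change of each class I gene, STINGLKO over STINGLoxp, in the 6-library edgeR fit (diamonds) and under 13 alternatives (circles), filled where the adjusted p is under 0.05. Red circles leave out STINGLoxp replicate 2, which leaves *Tap1* at -0.73 and *Psmb9* at -0.77 called and moves *Tapbp* to -0.001.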

How the data were processed

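RNA of 6 libraries was prepared with a VAHTS Universal V6 kit and sequenced in paired-end reads. Per the submitters' processing notes and the study's methods, the authors used fastp, HISAT2, StringTie and edgeR with GRCm39. The counting tool, annotation release and strand setting are not given in the sources used here. The authors deposited, for each of 57180 genes and each library, raw read counts and FPKM values, which are scaled to gene length and library total. All 12 columns of values were used, and groups came from the sample labels.

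The count fit used edgeR 4.0.16 in R 4.3.3: filterByExpr (minimum count 10), TMM (factors 0.973 to 1.02), the two-sided quasi-likelihood test and Benjamini-Hochberg adjustment over 14151 genes. For edgeR, the SE was computed here from the fold change and the F statistic of the test, and 95% intervals from that SE. Replicates differed by more than counting noise, the chi-square of replicate pairs being 7.77 to 16.7 per degree of freedom. The alternatives were DESeq2 1.42.0, upper-quartile factors, no filter beyond 1 count, a stricter filter of 10 counts in every library, limma-trend (limma 3.58.1) on log2(FPKM + 1) and log2(FPKM + 0.1), the replicate number as a block, and each library left out. DESeq2 gave no adjusted p for 8 genes. The main edgeR fit, the fit with the replicate block, DESeq2 and both limma-trend fits were also run on simulated data. RPKM used TMM-scaled counts and GENCODE principal transcript lengths, an addition made after the data had been seen. Promoters came from RefSeq on GRCm38.p6, and coordinates of the 2 builds were kept apart.

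The genes named are the 10 class I genes, *Sting1*, the constitutive partners, of each list the 2 highest by FPKM and the 2 with the smallest adjusted p, and the highest marker of each cell type. Genes outside this rule, such as *H2-Q6*, *H2-T24*, *Mr1*, *Fcgrt*, *Irf1*, *Stat2*, *Atf1*, *Psmb2*, *Psma2*, *Psma7*, *Psmg2*, *Psmg3*, *Mpeg1*, *Itgam* and the genes at 0, were chosen after their values were seen, as members of small counts. *Cd5l* and *H2-Ab1* were also named after their values were seen. The members and lists were chosen with earlier results of these data known. Results for some genes of the lists are not reported here.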

Additional observations from a re-analysis of the deposited data

How the results depend on the processing

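The count of class I genes called lower was 4 to 6 under other tools, scalings, filters and the block, and 2 to 7 when 1 library was left out: 2 without STINGLoxp replicate 2 and without STINGLKO replicate 1, and 3 without STINGLKO replicate 3. The other pathway lists had 11 to 13 genes lower and 2 to 8 higher with 1 library left out, with 2 higher without STINGLKO replicate 1 and 3 without STINGLKO replicate 2. *B2m* and *Tap2* each lost the call in 7 of 13 alternatives, *Psmb10* in 4 and *Psmb8* in 2, and limma-trend on FPKM called 4 of the 10. The summed heavy chains passed the threshold with upper-quartile factors (-0.19, adjusted p = 0.0421), with the replicate block (-0.18, adjusted p = 0.0167) and without STINGLoxp replicate 1 (-0.23), and ranged from -0.23 to -0.13 with 1 library left out. With 1 library left out, *Psmg4* ranged from -0.10 to 0.090 and *Sting1* from -0.26 to 0.11. *Psmg4* was -0.03 without STINGLoxp replicate 1 and -0.10 without STINGLKO replicate 2, and *Sting1* 0.06 without STINGLoxp replicate 3 and 0.11 without STINGLKO replicate 3. The subunit ratios kept their sign: -0.76 to -0.57 for *Psmb8*, -1.01 to -0.81 for *Psmb9*, -0.60 to -0.42 for *Psmb10* and -0.73 to -0.65 for the mean with 1 library left out. The *Tap1* to *Tap2* ratio was -0.62 to -0.48. The cause of these changes was not tested, beyond the smaller number of libraries.

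Same-numbered libraries correlated at 0.12, 0.0834 and 0.0134 in their deviations from the group means, and replicate 3 did not match its own number best, so the numbers were not taken as pairs. With the replicate number as a block, 6 of the 10 genes were called, *H2-D1* in place of *B2m*, and the other lists had 17 genes lower and 12 higher. For the ratios the blocked exact test cannot go below p = 0.25, which each gave. With 15 to 24 counts per library, depth limits what can be said of *Sting1*.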

Other observations

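The length that each FPKM value implies, read off as counts over FPKM, was longer than the whole locus for 5 of the class I genes. It was 10612 bases for *H2-K1*, which spans 4331, 11741 for *Tap1*, which spans 9673, 6989 for *Psmb9*, which spans 5778, 5327 for *Psmb8*, which spans 3734, and 4048 for *Psmb10*, which spans 2710. For *B2m* the implied length was 860 bases, the same as its principal transcript. Fold changes of a gene between libraries do not depend on this length, but the deposited FPKM ranks these genes lower against *B2m* than their transcripts' lengths would.

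In chromosome order, the neighbours *Psmb9*, *Tap1*, *Psmb8* and *Tap2*, which lie from 34400961 to 34435295 on chromosome 17, had log2 fold changes of -0.76, -0.80, -0.54 and -0.25. *H2-K1* and *H2-D1* on the same chromosome had -0.11 and -0.19.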
